A study of Mus musculus with 12 samples.

Results

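The 10 genes described here encode the TGF-beta ligands (Tgfb1, Tgfb2 and Tgfb3), their receptors (Tgfbr1, Tgfbr2 and Tgfbr3) and the latent TGF-beta binding proteins, or LTBPs (Ltbp1, Ltbp2, Ltbp3 and Ltbp4). They were chosen by gene symbol, as 10 of the 23329 genes listed in every library, and all 10 were among the 13038 genes tested. The data are gene counts from mRNAseq of primary stromal cells grown from the C57BL6/J mouse small intestine, taken from embryos at E14.5 or from adult mice and used at passage 2 or 3. Cells of each stage received lipopolysaccharide (LPS) from E. coli O111:B4 for 6 h or the PBS vehicle, which gave 4 groups of 3 libraries. The labels give the LPS dose as 10 µg/µl, and whether this volume unit is as intended could not be settled from them. All 4 groups were grown in the same serum-containing medium with the ROCK inhibitor Y27632. The 3 embryonic cultures each pooled several embryos and the adult cultures came from 3 mice, so an embryonic library has no value for a single animal. In fits without a block, p-values measure the spread between these libraries. In fits with the replicate number as a block, they measure the spread left after differences between replicate numbers are removed. The comparisons ask how LPS changed these genes at each stage, how the stages differed, and whether the response to LPS differed between stages.

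TGF-beta is secreted in a latent complex, in which the propeptide stays bound to the mature ligand and an LTBP usually tethers both to the extracellular matrix. Integrins and proteases free the ligand, which binds TGFBR2, and TGFBR2 then recruits and phosphorylates TGFBR1, which passes the signal to SMAD2 and SMAD3. TGFBR3, also called betaglycan, is a co-receptor that presents ligand, TGFB2 above all, to TGFBR2. In the gut wall the pathway is known for driving matrix production and the myofibroblast state and for restraining macrophages and T cells.

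The promoters of Tgfb1 and Tgfb2 are shown because both transcripts rose with LPS at both stages while their upstream sequences are built differently. The limits of both rises are given below, and a link between these sequences and the response was not tested. Each sequence gives the 250 bases before a RefSeq transcript start on GRCm38.p6, 5′ to 3′ on the strand of the gene. Capitals mark GC boxes (GGGCGG, the letters bound by Sp1, or CCGCCC where the box is on the other strand) in Tgfb1, and a SMAD motif (CAGACA) and a TATA box (TATAAA) in Tgfb2, searched on both strands. The first is chr7:25686752-25687001 on the plus strand and the second is chr1:186705990-186706239 on the minus strand.
Tgfb1: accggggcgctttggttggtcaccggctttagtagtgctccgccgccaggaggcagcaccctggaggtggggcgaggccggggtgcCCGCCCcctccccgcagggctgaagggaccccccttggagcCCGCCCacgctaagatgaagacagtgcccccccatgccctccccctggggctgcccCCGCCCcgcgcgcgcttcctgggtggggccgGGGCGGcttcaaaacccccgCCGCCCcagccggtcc
Tgfb2: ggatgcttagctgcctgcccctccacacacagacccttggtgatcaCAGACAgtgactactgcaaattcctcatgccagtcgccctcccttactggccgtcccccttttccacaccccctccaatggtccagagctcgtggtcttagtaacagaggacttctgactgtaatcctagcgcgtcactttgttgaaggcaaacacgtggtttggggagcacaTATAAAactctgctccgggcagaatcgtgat
The Tgfb1 window held 5 GC boxes and no TATA box, and the Tgfb2 window held 1 TATA box, starting 31 bases before the transcript start, 1 SMAD motif and no GC box. Among 32851 mouse promoter windows of the same length, 32.7% held a GC box, 12.4% a TATA box and 17.1% the SMAD motif. Neither window held the kappaB motif (3.9% of all windows), the AP-1 motif TGANTCA (6.75%) or the interferon response element, GAAA repeated after any pair of bases (2.98%). The promoter table held 8 of the 10 genes, and Tgfb3 and Tgfbr3 have no entry there.

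The libraries held 18850224 to 32672370 gene counts, with a median of 29738536, and the 10 genes took 0.189% to 0.33% of them. Levels are given as CPM, the usual count scale relative to library size, after TMM scaling, a correction for library composition, and 3 counts in a library correspond to 0.0897 to 0.145 CPM. The 9 stromal markers, which include the actin gene Acta2, the highest of them at 6940 to 14900 CPM, summed to 20800 to 39400 CPM. Pdgfra of that list stood at only 2.24 to 5.84 CPM in embryonic libraries and at 28.5 to 121 CPM in adult ones. Smooth muscle markers were high as well, so these sums do not tell the labelled cell type, intestinal myofibroblast, from smooth muscle. Cultures of 1 stage were not alike in their other cells. The 12 macrophage markers, led by Lyz2, summed in embryonic pair 3 to 2610 CPM (PBS) and 2010 CPM (LPS), to 178 to 955 CPM in the other embryonic libraries and to 16.4 to 198 CPM in the adult libraries, and none of the 12 was at 0 in any library. The 8 endothelial markers, led by Emcn, summed to 1850 and 1780 CPM in adult pair 2 and to 403 and 374 CPM in adult pair 3, but to 11.1 to 39.5 CPM in the other libraries. Emcn alone gave 1040 (PBS) and 987 CPM (LPS) of the sums in adult pair 2. Kdr of that list did not follow, at 13.7 and 7.35 CPM in adult pair 2 beside 15 and 9.41 CPM in adult pair 1. Smooth muscle markers summed to 4040 to 13900 CPM, mesothelial markers to 143 to 1430 CPM, and epithelial and interstitial cell of Cajal markers to at most 139 and 29.4 CPM, with Actg2, Upk3b, Krt18 and Ano1 the highest gene of each list. In bulk RNA, fewer cells of a type and less RNA per cell cannot be told apart.

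Within a stage, 1 LPS and 1 PBS library share each replicate number and are called a pair here. Their deviations from the group means went together in all 6 pairs (correlation across genes 0.61 to 0.85). Between unlike numbers the correlation was -0.749 to 0.0218. Deviations within a group cancel out, so low values between unlike numbers follow from high ones between like numbers. They are not separate support for the pairing. Since the libraries of a pair deviated together, each LPS comparison is given with the pair number as a block beside the fit without it. A gene is called when its Benjamini-Hochberg adjusted p in edgeR's quasi-likelihood test is under 0.05.

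**Figure D1:**
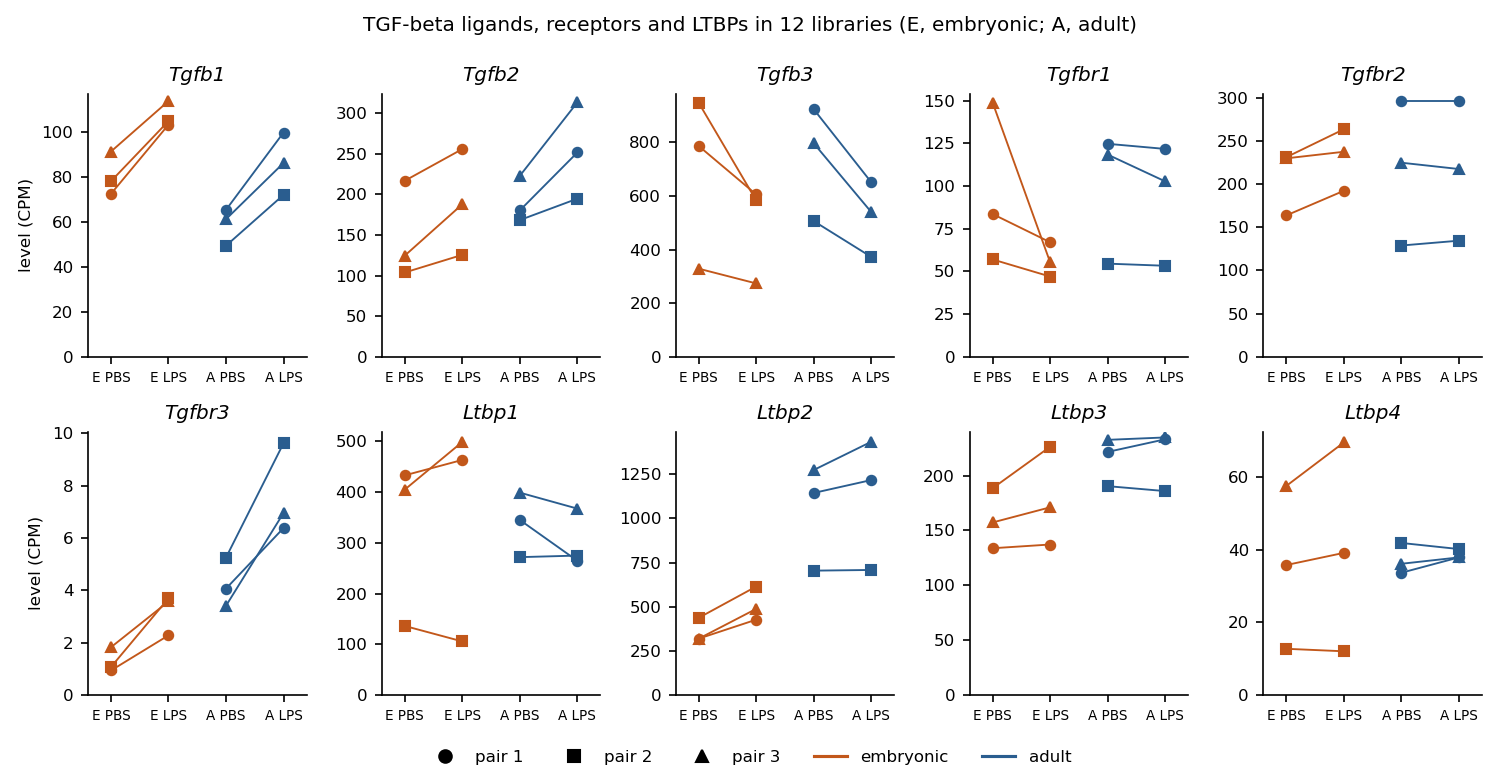
Level of each gene in CPM (vertical axis, from 0) in the 12 libraries, with a line joining the PBS and LPS library of a pair; marker shape gives the pair and colour the stage. Tgfb1, Tgfb2, Tgfbr3 and Ltbp2 are higher and Tgfb3 and Tgfbr1 are lower with LPS in all 6 pairs, Ltbp2 and Tgfbr1 only slightly in some adult pairs. Tgfbr3 and Ltbp2 are lower in every embryonic PBS library than in any adult PBS library.

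With LPS, the 3 ligands moved in different directions, and they did so at both stages. Tgfb1 and Tgfb2 rose and Tgfb3, the most abundant ligand, fell, with all 6 pairs on the same side for each. Of the receptors, Tgfbr3 rose at both stages and Tgfbr1 and Tgfbr2 were not called. Of the LTBPs, Ltbp2 rose in embryonic stroma, and none was called in adult stroma. Tgfbr1 was also lower and Ltbp2 higher with LPS in all 6 pairs. Their adult differences were small, at -0.21 to -0.03 and 0.01 to 0.17 on the log2 scale.

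In embryonic stroma, 5 of the 10 genes were called with the pairs as a block, 4 higher and 1 lower, where 12.5% of all genes tested were called (9.43% higher and 3.12% lower). In adult stroma, 4 were called, 3 higher and 1 lower, against a background of 6.2% (4.69% higher and 1.51% lower). Without the block none of the 10 was called at either stage, against 2.75% of all genes in embryonic stroma and 0.606% in adult stroma. By that edgeR fit, 2 of the 10 had an unadjusted p under 0.05 at each stage. Over all 13038 genes tested, 1407 did in embryonic and 727 in adult stroma. DESeq2 called 1 of the 10 in embryonic and 0 in adult stroma, with no share over all genes given for these counts. The median log2 fold change of the 10 genes with the block was 0.15 in embryonic and 0.04 in adult stroma, beside 0.0013 and -0.0089 over all genes tested.

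Tgfb1 lies at chr7:25687002-25705077 on the plus strand (GRCm38) and encodes the isoform that immune cells also make in quantity. In embryonic pairs 1, 2 and 3 its level was 72.4, 78.0 and 91.2 CPM with PBS and 103, 105 and 114 CPM with LPS. In adult pairs it was 65.3, 49.3 and 61.1 CPM with PBS and 99.6, 71.9 and 86.1 CPM with LPS. At each stage the lowest LPS library lay above the highest PBS library. The log2 fold change with the block was 0.42 (SE 0.07, adjusted p = 0.00561) in embryonic stroma and 0.55 (SE 0.07, adjusted p = 0.00286) in adult stroma. Without the block the adjusted p was 0.265 and 0.207. Embryonic pair 3, with the highest macrophage markers, also had the highest Tgfb1 with either treatment, and the part of those cells in its level was not tested. Without that pair the embryonic log2 fold change with the block was 0.44 (adjusted p = 0.0103), and pairs 1 and 2 held macrophage markers too (216 and 427 CPM with PBS). Without scaling factors the embryonic adjusted p was 0.0776.

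Tgfb2 lies at chr1:186622792-186705989 on the minus strand and encodes the isoform that binds TGFBR2 weakly unless betaglycan is present. Its level in embryonic pairs 1, 2 and 3 was 217, 104 and 125 CPM with PBS and 256, 126 and 188 CPM with LPS. The adult pairs had 180, 168 and 223 CPM with PBS and 252, 195 and 313 CPM with LPS. The groups overlap at both stages, the pairs start from different levels, and the rise appears within each pair. The log2 fold change with the block was 0.37 (SE 0.09, adjusted p = 0.0386) in embryonic and 0.39 (SE 0.09, adjusted p = 0.0466) in adult stroma, and without the block the adjusted p was 0.912 and 1. Both calls depended on single pairs. The embryonic one was lost without embryonic pair 1 (adjusted p = 0.0634) or 3 (0.18) or any adult pair (0.0688 to 0.117), and the adult one without embryonic pair 1 (0.0701) or any adult pair (0.103 to 0.42).

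Tgfb3 lies at chr12:86056745-86079041 on the minus strand and is the isoform known for its roles in mesenchyme during development and in wound repair. It was the ligand with the highest level in every library. In embryonic pairs 1, 2 and 3 it measured 786, 947 and 329 CPM with PBS and 605, 583 and 274 CPM with LPS. The adult pairs measured 923, 506 and 796 CPM with PBS and 651, 372 and 540 CPM with LPS. Embryonic pair 3 and adult pair 2 were the low pairs of their stages with either treatment, and the groups overlap. With the block the log2 fold change was -0.45 (SE 0.09, adjusted p = 0.0159) in embryonic and -0.50 (SE 0.09, adjusted p = 0.0167) in adult stroma, against adjusted p of 0.888 and 1 without it. In adult stroma the call was lost without any 1 of the adult pairs (adjusted p 0.0971 to 0.201), with log2 fold changes of -0.54 to -0.49.

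Tgfbr3, at chr5:107106570-107289629 on the minus strand, had the lowest level of the 10 genes and the largest response. In embryonic pairs 1, 2 and 3 it rose from 0.934, 1.07 and 1.82 CPM to 2.28, 3.70 and 3.57 CPM. These values rest on 31, 35 and 61 counts with PBS and 65, 107 and 92 counts with LPS. In adult pairs it rose from 4.07, 5.25 and 3.41 CPM to 6.38, 9.63 and 6.96 CPM. The LPS and PBS groups did not overlap at either stage. With the block the log2 fold change was 1.34 (SE 0.21, adjusted p = 0.00485) in embryonic and 0.85 (SE 0.18, adjusted p = 0.0345) in adult stroma, and without it the adjusted p was 0.0712 and 0.596. The adult call was lost without embryonic pair 1 (adjusted p = 0.0586) or any adult pair (0.144 to 0.267). Adult pair 2, with the highest sum of endothelial markers, had the highest Tgfbr3 with either treatment, and the part of those cells in its level was not tested. Its exons share 297 bases with Gm43422 on the same strand, where reads cannot be told apart.

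The signalling receptors, Tgfbr1 at chr4:47353222-47414931 on the plus strand and Tgfbr2 at chr9:116084293-116175360 on the minus strand, were not called at either stage. Tgfbr1, the type I receptor kinase, measured 149 CPM with PBS and 55.5 CPM after LPS in embryonic pair 3, and 83.7 and 57.1 CPM with PBS and 67.1 and 47.0 CPM after LPS in pairs 1 and 2. The log2 fold change with the block was -0.67 (SE 0.20, adjusted p = 0.0721) in embryonic and -0.09 (SE 0.20, adjusted p = 0.889) in adult stroma, where levels ran from 54.6 to 125 CPM with PBS and from 53.4 to 122 CPM with LPS. Embryonic pair 3 is the pair with the highest macrophage markers, and their part in the Tgfbr1 values was not tested. The embryonic difference was called without pair 2 (-0.87, adjusted p = 0.0442) and, at a smaller size, without pair 3 (-0.33, adjusted p = 0.0441), and DESeq2 with the block called it too (adjusted p = 0.00321). Tgfbr2, the type II receptor that binds ligand, measured 164 to 231 CPM in embryonic PBS libraries and 192 to 263 CPM in embryonic LPS libraries, with a log2 fold change of 0.16 (SE 0.06, adjusted p = 0.169). In adult libraries it measured 129 to 296 CPM with PBS and 134 to 296 CPM with LPS, and the log2 fold change was 0.0044 (SE 0.06, adjusted p = 0.988).

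Ltbp2, at chr12:84783212-84876532 on the minus strand, encodes the LTBP that binds elastic fibres and microfibrils but does not bind latent TGF-beta itself. In embryonic pairs 1, 2 and 3 it measured 319, 437 and 319 CPM with PBS and 426, 614 and 488 CPM with LPS, and only the highest PBS library reached into the range of the LPS libraries. In adult pairs it measured 1144, 704 and 1274 CPM with PBS and 1217, 708 and 1434 CPM with LPS. The log2 fold change with the block was 0.51 (SE 0.07, adjusted p = 0.0026) in embryonic stroma, with an adjusted p of 0.669 without it. In adult stroma it was 0.09 (SE 0.07, adjusted p = 0.598). The embryonic call held in each of the fits with the block that were run, including the embryonic libraries alone (adjusted p = 0.043), where Tgfb1, Tgfb2, Tgfb3 and Tgfbr3 were no longer called (0.0701, 0.151, 0.106 and 0.0505). Its exons share 764 bases with D030025P21Rik on the other strand, and counts on either strand gave 0.51.

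The other LTBPs, which bind latent TGF-beta through the propeptide (Ltbp4 only weakly), were not called. Ltbp1 lies at chr17:75005568-75392512 and Ltbp3 at chr19:5740904-5758532, both on the plus strand, and Ltbp4 at chr7:27305136-27337692 on the minus strand. With the block, Ltbp1 had a log2 fold change of 0.01 (SE 0.13) in embryonic and -0.16 (SE 0.13) in adult stroma, Ltbp3 of 0.14 (SE 0.07) and 0.02 (SE 0.07), and Ltbp4 of 0.12 (SE 0.09) and 0.06 (SE 0.09). Their adjusted p ran from 0.225 to 0.966. Ltbp1 and Ltbp4 varied more between embryonic cultures than with LPS. Embryonic pair 2 measured 136 and 106 CPM of Ltbp1 where the other embryonic libraries measured 405 to 499 CPM, and 12.7 and 12.02 CPM of Ltbp4 where the others measured 35.8 to 69.6 CPM. That pair also had the highest mesothelial markers among the embryonic libraries (752 and 662 CPM, against 143 to 156 CPM). Its summed smooth muscle markers were the lowest of these libraries. Des of that list went the other way with PBS, at 2580 CPM beside 2080 and 1670 CPM in pairs 1 and 3. The part of either list in the Ltbp1 and Ltbp4 levels was not tested.

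**Figure D2:**
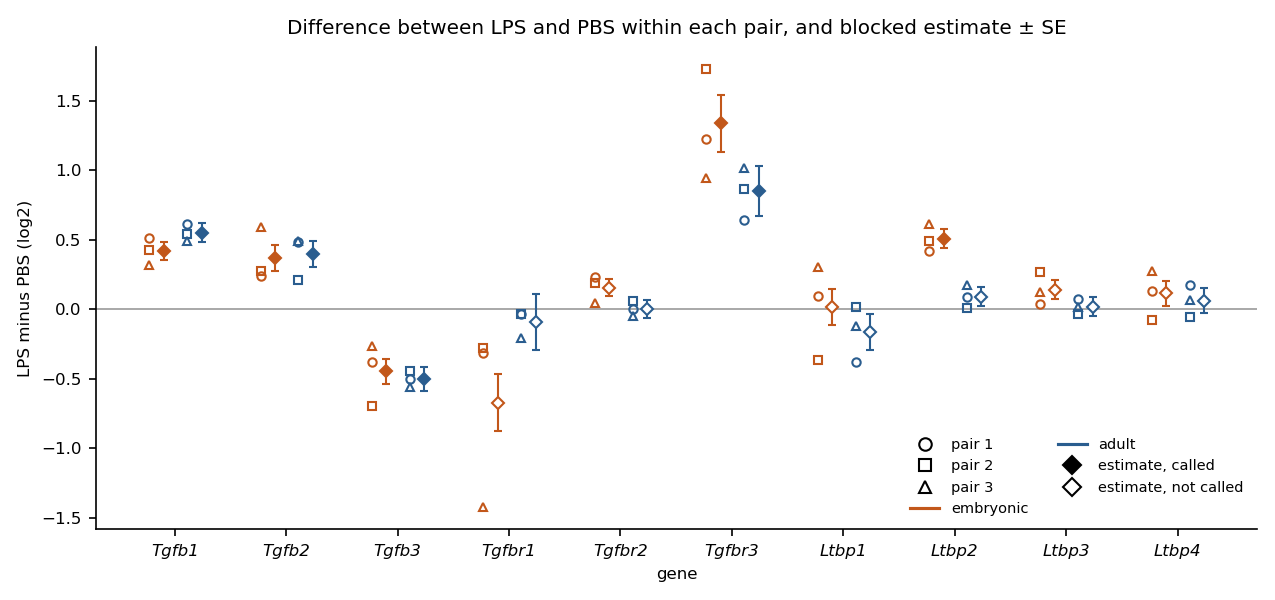
Difference between LPS and PBS on the log2 CPM scale for each gene, with open symbols for the 3 pairs of a stage and diamonds for the blocked edgeR estimate ± SE (filled when called). Tgfb1, Tgfb2, Tgfb3, Tgfbr1, Tgfbr3 and Ltbp2 each lie on the same side of 0 in all 6 pairs. Ltbp2 stands away from 0 in embryonic pairs, at 0.42 to 0.61, but lies at 0.01 to 0.17 in adult pairs. Tgfbr1 in embryonic pair 3 lies at -1.42, far from the other pairs.

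The direct test of whether the response differed between stages called none of the 10 genes. With the block, 0.844% of all genes were called for this interaction. An unadjusted p under 0.05 was found for 1 of the 10, beside 1163 of the 13038 genes tested. Without the block 0% of all genes were called, and none of the 10 had an unadjusted p under 0.05, beside 293 of all genes tested. DESeq2 also called 0 of the 10 with and without the block. The gene with the unadjusted p under 0.05 was Ltbp2, whose embryonic response exceeded the adult one by 0.42 on the log2 scale (SE 0.10, unadjusted p = 0.00279, adjusted p = 0.165). The differences within embryonic pairs were 0.42 to 0.61 and those within adult pairs 0.01 to 0.17, without overlap. For Tgfb1, Tgfb2 and Tgfb3 the embryonic response minus the adult one was -0.13 (SE 0.09), -0.03 (SE 0.13) and 0.05 (SE 0.13). For Tgfbr3 it was 0.49 (SE 0.27, adjusted p = 0.685), and for Tgfbr1 -0.58 (SE 0.29, adjusted p = 0.63).

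The opposite movements shifted the make-up of the ligand transcripts, measured as each ligand's share of the summed CPM per kb of exon. Tgfb3 made up 75.6%, 83.4% and 59.6% of the ligand sum in embryonic pairs 1, 2 and 3 with PBS and 65.0%, 70.4% and 47.8% with LPS. In adult pairs it made up 80.8%, 73.1% and 76.8% with PBS and 67.1%, 61.0% and 61.5% with LPS. The share was lower with LPS in 6 of 6 pairs, and the adult groups did not overlap (76.9% ± 3.87 against 63.2% ± 3.42, SD, n = 3). Tgfb1 took 9.72% ± 1.20 of the adult sum with PBS and 16.5% ± 1.59 with LPS, and Tgfb2 took 13.4% ± 2.83 and 20.3% ± 3.20. In embryonic libraries Tgfb1 took 15.7% ± 8.64 and 22.6% ± 7.28 and Tgfb2 11.4% ± 4.76 and 16.4% ± 5.89, and the groups overlap for both. The Tgfb1 share was highest in pair 3 (25.7% with PBS and 30.9% with LPS) and the Tgfb2 share lowest in pair 2 (5.95% and 9.87%). Without scaling to length the Tgfb1 share was 6.02% and 10.1% in adult PBS and LPS libraries and 10.1% and 14.4% in embryonic ones, and the Tgfb2 share 19.8% and 29.6% in adult and 17.4% and 24.9% in embryonic ones, so that Tgfb2 then exceeded Tgfb1 on average in embryonic libraries too. Shares within a library sum to 100%, so they are not independent of each other and were given no test.

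Among the LTBPs, Ltbp2 was the largest part of the sum in all adult libraries, with 60.7% ± 4.46 with PBS and 63.2% ± 6.29 with LPS. In embryonic libraries it made up 39.4% ± 11.5 with PBS and 45.5% ± 12.4 with LPS. In embryonic pairs 1 and 3 with PBS it made up 33.2% and 32.3%, beside 52.6% in pair 2. The highest embryonic PBS value lay below the lowest adult PBS value of 55.6%. With LPS the stages overlapped, at 59.8% in embryonic pair 2 and 55.9% in adult pair 2. Ltbp4 was the smallest part, at 2.68% to 4.27% of the sum on average.

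**Figure D3:**
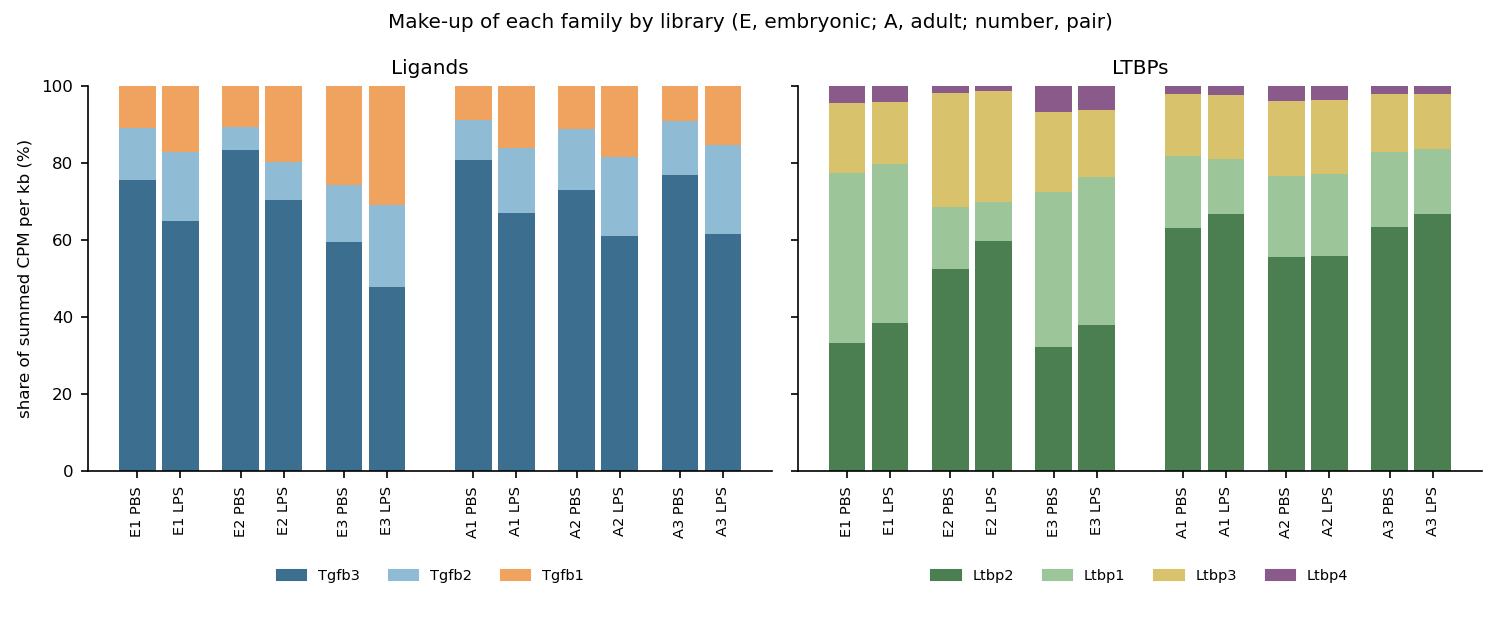
Stacked bars of each gene's share (percent) of the summed CPM per kb of its family, for the ligands (left) and the LTBPs (right), in PBS and LPS libraries of each pair. The Tgfb3 part is smaller in the LPS bar of all 6 pairs, and the Ltbp2 part is larger in adult than in embryonic PBS bars.

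On the per-length scale, the order of the levels in adult PBS cultures was Tgfb3 (219 ± 63.2 CPM per kb, SD, n = 3), Ltbp2 (154 ± 44.2), Ltbp1 (49.1 ± 9.25), Ltbp3 (41.4 ± 4.22), Tgfb2 (36.6 ± 5.51), Tgfb1 (26.9 ± 3.80), Tgfbr2 (26.4 ± 10.2), Tgfbr1 (15.5 ± 6.05), Ltbp4 (6.35 ± 0.72) and Tgfbr3 (0.697 ± 0.153). Neighbours whose ranges of mean ± SD overlapped were Tgfb3 and Ltbp2, Ltbp1 and Ltbp3, Ltbp3 and Tgfb2, Tgfb1 and Tgfbr2, and Tgfbr2 and Tgfbr1, and the other neighbours did not overlap in this sense. In embryonic PBS cultures Tgfb3 also came first (203 ± 94.8 CPM per kb) and Tgfbr3 last (0.21 ± 0.08). Between them came Ltbp2 (52.9 ± 10.1), Ltbp1 (47.1 ± 23.8), Tgfb1 (37.0 ± 4.43), Ltbp3 (30.8 ± 5.29), Tgfb2 (28.5 ± 11.6), Tgfbr2 (25.4 ± 4.71), Tgfbr1 (15.1 ± 7.38) and Ltbp4 (6.04 ± 3.83), and from Ltbp2 to Ltbp4 each overlapped the next.

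Between stages, the adult cultures had more Tgfbr3 and Ltbp2, and no gene of the set was called higher in embryonic cultures. With PBS, 2 of the 10 genes were called, both lower in embryonic stroma, where 4.08% of all genes were called and 2.57% were called lower. Embryonic Tgfbr3 averaged 1.28 ± 0.48 CPM and adult Tgfbr3 4.24 ± 0.93 CPM (SD, n = 3), a log2 difference of -1.73 (SE 0.33, adjusted p = 0.0209). Embryonic Ltbp2 averaged 358 ± 68.1 CPM and adult Ltbp2 1041 ± 299 CPM, a log2 difference of -1.54 (SE 0.30, adjusted p = 0.0223). For both genes every embryonic PBS library lay below every adult PBS library.

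Both stage calls rested on few libraries. The fit behind all stage comparisons treats the 2 libraries of a pair as independent when it estimates the spread, although they deviated together. In the PBS libraries alone, neither gene was called, with log2 differences of -1.73 (Tgfbr3, adjusted p = 0.0881) and -1.55 (Ltbp2, adjusted p = 0.0541). The Tgfbr3 call was lost without embryonic PBS library 1 (adjusted p = 0.0702), adult PBS library 1 (0.0537) or adult PBS library 2 (0.068), and the Ltbp2 call without embryonic PBS library 1 (0.0744) or 3 (0.0657) or adult PBS library 1 (0.0666) or 3 (0.095). Macrophage markers moved with stage in the PBS libraries, at 216 to 2610 CPM in embryonic and 19.7 to 182 CPM in adult cultures. The sum of endothelial markers was high in adult pairs 2 and 3 alone. The part of either marker list in the stage differences was not tested.

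With LPS on both sides, none of the 10 genes was called between stages by edgeR, against 5.31% of all genes. An unadjusted p under 0.05 was found for 2 of the 10, beside 2872 of the 13038 genes tested. DESeq2 called the same 2, with no share over all genes given for that count. These were Tgfbr3 (-1.27, SE 0.32, adjusted p = 0.0505) and Ltbp2 (-1.14, SE 0.30, adjusted p = 0.0542), and their embryonic and adult LPS libraries did not overlap. Tgfb1 was 80.5 ± 9.64 CPM in embryonic and 58.6 ± 8.27 CPM in adult PBS cultures, a log2 difference of 0.46 (SE 0.15, adjusted p = 0.111), and 0.32 (SE 0.15, adjusted p = 0.241) with LPS. Ltbp3 was 160 ± 27.4 and 215 ± 21.9 CPM with PBS, with a log2 difference of -0.43 (SE 0.19, adjusted p = 0.26). For Tgfb3 the log2 difference was -0.11 (SE 0.42) with PBS, with embryonic libraries from 329 to 947 CPM and adult ones from 506 to 923 CPM.

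**Figure D4:**
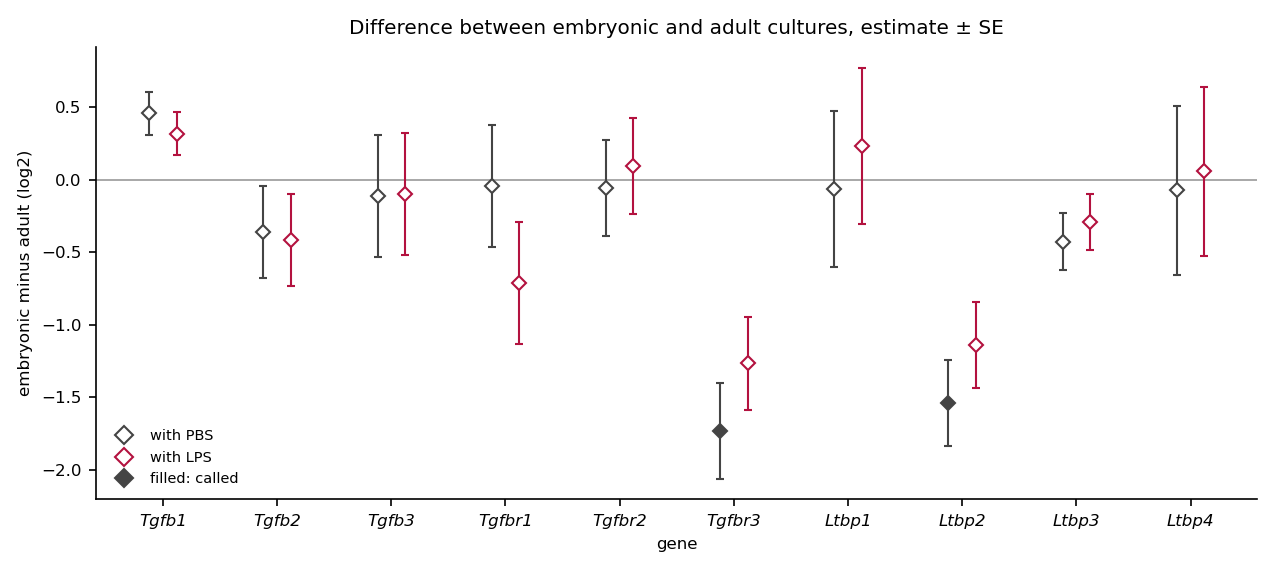
Log2 difference between embryonic and adult cultures (embryonic minus adult) for each gene, with PBS and with LPS, as the edgeR estimate without block ± SE, filled when called. Tgfbr3 and Ltbp2 lie at -1.73 and -1.54 with PBS and at -1.27 and -1.14 with LPS, and the other estimates lie between -0.71 and 0.46.

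The other pathway genes were set out in 6 lists, and their counts with LPS are read against the 12.5% of all genes called in embryonic and the 6.2% in adult stroma with the block. With the block, 7 of 20 genes for release of latent TGF-beta and its integrins were called in embryonic stroma, 6 higher and 1 lower, and 4 in adult stroma, all higher. The list's median log2 fold change was 0.22 and 0.03, beside 0.0013 and -0.0089 over all genes. Without the block no gene of any of the 6 lists was called with LPS at either stage. Mmp9, a gelatinase that can cleave latent TGF-beta, rose from 10.1, 0.915 and 2.42 CPM to 58.4, 2.45 and 26.2 CPM in embryonic pairs and from 0.147, 0.385 and 0.273 CPM to 11.1, 2.52 and 8.34 CPM in adult pairs, with log2 fold changes of 2.62 (SE 0.41, adjusted p = 0.00505) and 4.76 (SE 0.58, adjusted p = 0.0029). The adult size depends on PBS levels near the floor of 3 counts. Plau and Plat, the plasminogen activators, rose at both stages. In adult stroma the log2 fold changes were 1.88 (SE 0.27, adjusted p = 0.00662) and 1.56 (SE 0.20, adjusted p = 0.00363), and in embryonic stroma 1.14 (SE 0.27, adjusted p = 0.0296) and 0.84 (SE 0.20, adjusted p = 0.0308). The difference between stages was not called for either (adjusted p = 0.649 and 0.492). Plau went from 119, 65.2 and 91.9 CPM to 664, 128 and 406 CPM in adult pairs.

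Itgb8, a subunit of the integrin that activates latent TGF-beta on cell surfaces, was near the floor of 3 counts in embryonic PBS cultures and clearly present in adult ones. It measured 0.0904, 0.549 and 0.0598 CPM in embryonic PBS, 0.736, 1.80 and 2.25 CPM in embryonic LPS and 4.40 to 9.53 CPM in the adult libraries. The log2 fold change with LPS in embryonic stroma was 2.82 (SE 0.52, adjusted p = 0.0106), and the embryonic to adult difference with PBS was -4.70 (SE 0.75, adjusted p = 0.0102), sizes that depend on the low embryonic PBS counts. Nrros, which encodes a carrier of latent TGF-beta1 on macrophages, was the 1 gene of the list that fell, by 2.39 on the log2 scale (SE 0.48, adjusted p = 0.0169) in embryonic stroma. It measured 3.07, 5.09 and 26.8 CPM with PBS and 0.456, 2.42 and 2.52 CPM with LPS, highest in the pair with the highest macrophage markers.

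Lrrc32 encodes GARP, the surface carrier of latent TGF-beta. Its LPS response was called different between stages with the block (interaction 0.91, SE 0.12, adjusted p = 0.0145). It was the 1 called gene of 20 in its list, and the other lists held none, beside 0.844% of all genes called. It rose from 16.2, 3.72 and 14.2 CPM to 26.2, 7.60 and 25.6 CPM in embryonic pairs. In adult pairs it measured 359, 160 and 350 CPM with PBS and 313, 164 and 340 CPM with LPS. Every adult library therefore held more Lrrc32 than any embryonic one, and the stage difference was -4.67 (SE 0.69, adjusted p = 0.00667) with PBS and -3.78 (SE 0.66, adjusted p = 0.0147) with LPS.

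Inside the cell, 1 gene of the 5 of the SMAD relay was called at each stage. This was Smad3, which carries the receptor signal to the nucleus, and it rose by 0.94 (SE 0.12, adjusted p = 0.00155) in embryonic and 0.75 (SE 0.12, adjusted p = 0.00823) in adult stroma on the log2 scale. Its level went from 39.2, 63.4 and 42.6 CPM to 89.2, 109 and 77.9 CPM in embryonic pairs and from 80.7, 63.8 and 57.2 CPM to 164, 90.7 and 93.9 CPM in adult pairs. Of 10 negative feedback genes, 3 were called in embryonic stroma (1 higher, 2 lower) and 2 in adult stroma (1 higher, 1 lower), beside 12.5% and 6.2% of all genes. Tgif1, a SMAD corepressor, rose at both stages (0.80, SE 0.10, adjusted p = 0.00136, and 0.69, SE 0.10, adjusted p = 0.00509), and Ski, another SMAD corepressor, fell at both (-0.56, SE 0.12, adjusted p = 0.0207, and -0.63, SE 0.12, adjusted p = 0.0221). Smad6, an inhibitory SMAD, fell in embryonic stroma (-0.81, SE 0.20, adjusted p = 0.0389).

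Of the 23 target genes of TGF-beta, 2 were called with LPS in embryonic stroma and 1 in adult stroma, all higher, shares near the 12.5% and 6.2% of all genes called. These were Tgif1 at both stages and Bhlhe40, a transcription factor that many stimuli induce, in embryonic stroma (0.89, SE 0.18, adjusted p = 0.0174). The list's median log2 fold change was 0.12 in embryonic and -0.02 in adult stroma. None of the 9 co-receptors and extracellular modulators was called at either stage. In the activin branch, a related signalling arm, 1 of 10 genes tested (of 11 listed) was called in embryonic stroma and 2 in adult stroma. Inhbb, an activin subunit, rose from 0.723, 2.62 and 0.419 CPM to 1.65, 6.11 and 1.71 CPM in embryonic pairs (1.41, SE 0.21, adjusted p = 0.0038). Acvr1b, the activin type I receptor, rose in adult stroma (1.35, SE 0.30, adjusted p = 0.0418), from 9.05, 16 and 10.4 CPM to 41.2, 21.6 and 27.7 CPM. Fst, the activin antagonist follistatin, fell there (-0.40, SE 0.09, adjusted p = 0.0348).

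**Figure D5:**
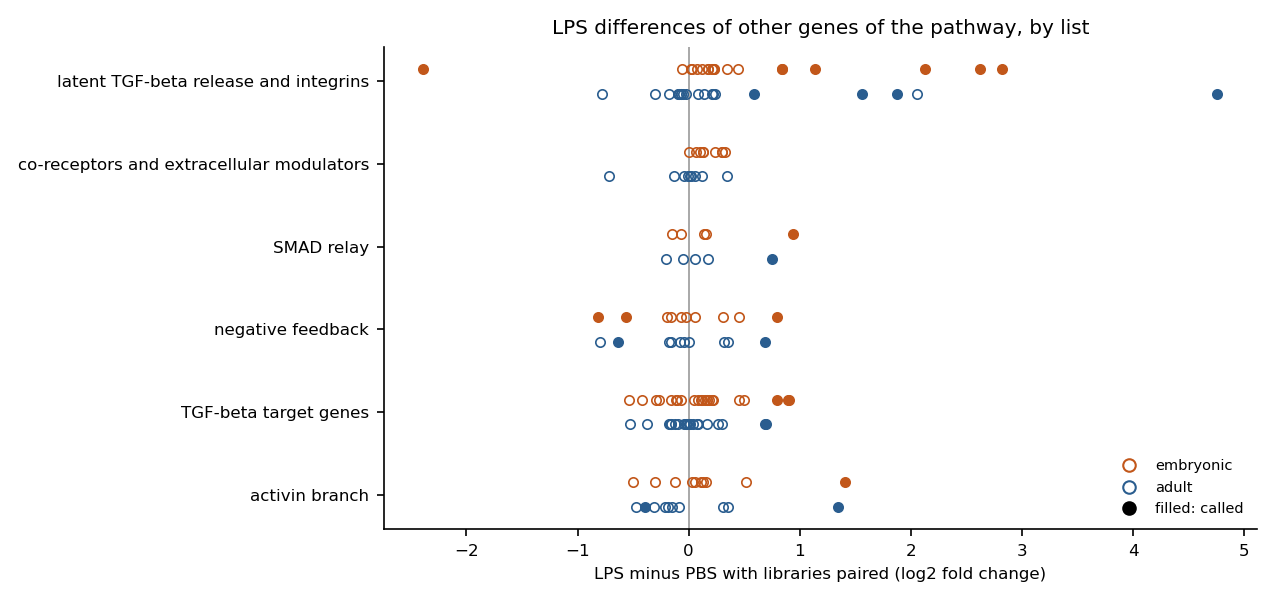
Log2 fold change with LPS (horizontal axis, blocked edgeR estimate) of every tested gene of the 6 lists of other pathway genes, by stage, filled when called. The release and integrin list holds the largest changes, up to 4.76 for Mmp9 in adult stroma, while the target genes lie mostly around 0.

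Between stages with PBS, 4.08% of all genes were called, and the counts in the lists are read against that share. Of the release and integrin list 3 of 20 were called, with Fbn2, the fibrillin of fetal microfibrils, higher in embryonic stroma (234, 70.3 and 158 CPM against 13.9, 9.49 and 8.83 CPM; 3.84, SE 0.52, adjusted p = 0.00401) and Itgb8 and Lrrc32 lower. Of the co-receptors and modulators 2 of 9 were called lower, namely Fmod, fibromodulin, a small proteoglycan that binds TGF-beta (0.844, 2.01 and 1.32 CPM against 38.6, 14.3 and 33 CPM, -4.36, SE 0.52, adjusted p = 0.00258), and Bgn, biglycan (-2.06, SE 0.39, adjusted p = 0.0209). Of the target genes 2 of 23 were called, with Tgfbi, a secreted matrix protein, higher (4.25, SE 0.97, adjusted p = 0.0394) and Snai1, a transcriptional repressor, lower (-1.44, SE 0.29, adjusted p = 0.0244). Tgfbi measured 86.1, 10.2 and 141 CPM in embryonic and 3.10 to 5.42 CPM in adult PBS libraries. Smurf2, a ubiquitin ligase that removes receptors, was the 1 of 10 feedback genes called (-0.71, SE 0.16, adjusted p = 0.0429), and none of the SMAD relay or the activin branch was called.

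With LPS on both sides, 5.31% of all genes were called. Called were 3 of 20 in the release and integrin list, 3 of 9 co-receptors and modulators and 2 of 10 feedback genes. The target genes had 3 of 23, the activin branch 1 of 10 and the SMAD relay none. Fbn2, Fmod, Bgn, Lrrc32, Tgfbi, Snai1 and Smurf2 were called in the same directions as with PBS, and Itgb8 was not called. The 2 comparisons are not independent, since the libraries of a pair deviated together. Nrp1, a co-receptor, was called higher in embryonic stroma (1.14, SE 0.25, adjusted p = 0.0314), as were Skil, a SMAD corepressor (0.65, SE 0.16, adjusted p = 0.0483), and Itgb6, an integrin subunit (3.19, SE 0.72, adjusted p = 0.0333). Itgb6 stood at only 0.656 to 1.48 CPM in embryonic LPS libraries and at 0.0308 to 0.163 CPM in adult ones. Acvr1b was called lower in embryonic stroma (-1.95, SE 0.34, adjusted p = 0.0145).

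The genes whose pattern over the 12 libraries came closest to each ligand were ranked by the root mean square difference of mean-centred log2 CPM. For Tgfb1 they were Vps37c, Ifngr2 and Mettl2, at 0.18 each. For Tgfb2 they were Rdh10 at 0.17, Dab2ip at 0.19 and Epb4.1l1 at 0.21. For Tgfb3, Pdgfc stood closest at 0.16, ahead of Ahdc1 and Klhl21 at 0.25 each. The measure describes these 12 libraries, which share treatment, stage and pairs, and carries no test.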

How the data were processed

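Primary intestinal stromal cells were profiled by stranded polyA mRNAseq in 4 groups of 3 libraries, grouped by the sample labels. The authors trimmed the reads, mapped them with STAR to GRCm38.p6 and kept unique alignments. The deposited values are raw counts per gene, given for either strand and for each strand, of which the sense-strand counts were used here (1.14% to 1.98% of strand-assigned counts lay on the opposite strand). Genes with a CPM above 0.5 in all libraries of at least 1 group were kept, as the authors did, and analysed in R 4.3.3 with edgeR 4.0.16 (TMM, quasi-likelihood test, 4-group model, p adjusted by Benjamini-Hochberg across the whole table). The SE is the log2 fold change divided by the square root of F. LPS comparisons were refitted with the replicate number as a block within stage, since the libraries of a pair deviated together. Nothing in the labels says that a pair came from 1 culture. Log2 CPM used a prior count of 2, and lengths are exon unions of GENCODE genes on GRCm38. The steps were tested on simulated data with planted log2 changes of 2 in size, which does not test the detection of the smaller changes given here. DESeq2 1.42.0 served as an alternative and Python 3.11.15 and matplotlib 3.10.9 made the figures.

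The 10 genes, the gene lists, the tests and the rule for named genes were chosen with earlier results of these data known. Up to 3 called genes with the largest change were named per list and comparison, in the fit with the block for LPS and without it for stage, and the gene with the highest mean of each marker list and the 3 genes nearest to each ligand were named. The result of 1 marker list is not reported here. Applying that rule to the fit with the block was decided after its values were seen.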

Additional observations from a re-analysis of the deposited data

How the results depend on the processing

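For LPS in embryonic stroma, where no gene of the set was called without the block, DESeq2 called 1, a likelihood ratio test 1, and the fit with the replicate block 5. Leaving out 1 library gave 0 to 1, the 1 being Tgfbr3 without embryonic LPS library 1 (adjusted p = 0.045) or embryonic PBS library 3 (0.0399). For LPS in adult stroma the block gave 4 where the fit without it gave 0. With the block, the embryonic libraries alone gave 1 call in place of 5 (Ltbp2), and leaving out 1 pair gave 4 to 6 in embryonic and 1 to 4 in adult stroma. The adult count was 2 without embryonic pair 1 and 1, Tgfb1, without any adult pair. Embryonic Tgfbr1 with the block was called without scaling factors (adjusted p = 0.048) and without a filter (0.0371). The adult Tgfbr3 call was lost without scaling factors (adjusted p = 0.0689). Both Tgfb2 calls were lost with DESeq2 size factors in edgeR (0.0574 and 0.0721), and the embryonic one without scaling factors (0.0714), a setting that shifted the median of all genes by -0.13. For stage with PBS, the 2 calls became 0 with a log2 fold change of at least 2 asked as well and 0 in the PBS libraries alone, and leaving out 1 library gave 0 to 2. For stage with LPS, the count of 0 became 1 with DESeq2 size factors, 1 without scaling, 1 with counts on either strand, 2 with DESeq2, 2 with the likelihood ratio test, 0 to 1 without 1 library, and 1 with the replicate number as a block across stages. Those numbers do not pair stages (same-number correlations -0.306 to -0.0022), so that block is given here alone. Within a stage, the block changed no calls of the set beyond those given beside the results. The interaction count stayed 0 in every fit run.

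Of 80 fold changes of a gene in a comparison, 31 changed sign under some alternative, and none of these had been called or was called after the change (smallest adjusted p 0.453). Without scaling factors the values were -0.027 (Ltbp1) and -0.0008 (Ltbp4) for embryonic LPS, -0.024 (Ltbp3) for adult LPS, 0.044 (Tgfbr1) and 0.010 (Tgfbr2) for stage with PBS, -0.030 (Ltbp4) for stage with LPS, and -0.043 (Tgfb3) and -0.0098 (Ltbp4) for the interaction. With the block as well they were -0.12 (Ltbp1), -0.024 (Ltbp4), -0.038 (Tgfbr2, adult), -0.025 (Ltbp3, adult), -0.037 (Tgfb3, interaction) and -0.042 (Ltbp4, interaction). The block alone gave 0.0044 for Tgfbr2 in adult stroma. Across stages the block gave 0.0061 (Tgfbr2, PBS), -0.014 (Ltbp1, LPS) and -0.21 (Ltbp4, LPS). Without a filter the Tgfb3 interaction was -0.0059, and with the block Ltbp1 in embryonic stroma was -0.014 and Tgfbr2 in adult stroma -0.0044. For the same genes with the block, DESeq2 gave -0.0003 and -0.0077, each stage alone gave -0.010 and -0.0005, and DESeq2 size factors gave -0.0075 for Tgfbr2. Leaving out 1 library moved embryonic LPS values of Ltbp1 from -0.23 to 0.57, Ltbp3 from -0.055 to 0.31, Ltbp4 from -0.48 to 0.73 and Tgfbr2 from -0.023 to 0.27. Adult values moved from -0.058 to 0.12 (Ltbp3), -0.39 to 0.18 (Tgfbr1), -0.30 to 0.29 (Tgfbr2), -0.11 to 0.35 (Ltbp2) and -0.011 to 0.15 (Ltbp4). Stage values with PBS moved from -0.50 to 0.22 (Tgfbr1), -0.32 to 0.24 (Tgfbr2), -0.32 to 0.30 (Ltbp1), -0.62 to 0.32 (Ltbp4) and -0.42 to 0.22 (Tgfb3), and with LPS from -0.085 to 0.67 (Ltbp1), -0.15 to 0.40 (Tgfbr2), -0.29 to 0.17 (Tgfb3) and -0.60 to 0.49 (Ltbp4). Interaction values moved from -0.32 to 0.32 (Tgfb3), -0.33 to 0.31 (Tgfb2), -0.074 to 0.29 (Ltbp3), -0.068 to 0.73 (Ltbp1), -0.52 to 0.68 (Ltbp4) and -0.14 to 0.45 (Tgfbr2). With the block, leaving out 1 pair moved values from -0.16 to 0.20 (Ltbp1, embryonic), -0.033 to 0.018 (Tgfbr2, adult), -0.011 to 0.035 (Ltbp3, adult), -0.16 to 0.040 (Tgfb2, interaction), -0.060 to 0.18 (Tgfb3, interaction) and -0.049 to 0.14 (Ltbp4, interaction). Alternatives with the block were chosen after the data were seen. The causes were not tested. Depth limits Tgfbr3 most, with 31 to 313 counts per library.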
